A study of Mus musculus with 6 samples.

Results

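Open chromatin at 10 genes of focal adhesions and force-gated ion channels is described here in cultured mouse lung fibroblasts: Ptk2, Vcl, Tln1, Pxn, Tns1, Zyx, Lpp, Palld, Piezo1 and Piezo2. Their regions were taken by gene name and distance alone, as every open region that the authors' tables assign to 1 of the 10 genes within 100 kb of an annotated transcription start site (TSS). In the table that compares 32 kPa with plastic this gave 86 of 64217 regions, with at least 2 regions for each gene. In the tables of regions that were higher on a stiffer culture than on 0.2 kPa it gave 3 of 2121 regions for 32 kPa and 2 of 2114 for plastic. Omni-ATAC-seq, a method that maps open DNA by where an added transposase can insert, was run on GFP-positive lung fibroblasts sorted from Col1a1-GFP transgenic mice, in which the reporter marks cells with an active type I collagen promoter. All cells grew for 8 days on collagen I in medium with 10% serum, on 0.2 kPa PDMS (a soft silicone), 32 kPa PDMS or tissue-culture plastic. Each culture had 2 libraries of 50000 cells, 6 in all. All groups shared the reporter and the serum. Levels are the authors' mean of both libraries of a culture in log2 normalised reads per region, so the spread between libraries and the depth are unknown. The labels do not tie the libraries of a culture to separate mice, so the deposited p-values may measure technical spread only.

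A region is called listed where the authors' deposited table holds it, which in both tables of 0.2 kPa meant a log2 fold of at least 1 towards the stiffer culture and a false discovery rate (FDR) of at most 0.05. The lowest level of any listed region was 4.97 on 32 kPa and 4.94 on plastic, and no region below these levels was listed. All listed regions were higher on the stiffer culture, and the absence of a region from a list does not show that it was equal. Of 8 fibroblast marker genes, 7 had an open region within 1 kb of a start, with levels of 3.76 to 6.14 on 32 kPa. None of 4 epithelial and none of 3 mesothelial markers had one, against 1 of 3 endothelial (Kdr), 1 of 3 leukocyte (Lyz2) and 1 of 3 pericyte and smooth muscle markers (Myh11). The Lyz2 region had a level of 5.01 on 32 kPa and 4.29 on plastic, and its part in the results was not tested.

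Focal adhesions are the plaques through which integrins in the cell membrane hold the matrix on one side and actin stress fibres on the other. Talin (Tln1) binds integrin tails and actin and unfolds under tension, which exposes binding sites for vinculin (Vcl), and the kinase FAK (Ptk2) and the scaffold paxillin (Pxn) turn the contact into a signal. Tensin (Tns1) sits in the elongated adhesions along fibronectin fibres, the LIM proteins zyxin (Zyx) and LPP (Lpp) gather on strained actin, and palladin (Palld) bundles actin in the stress fibres of myofibroblasts. Piezo1 and Piezo2 are cation channels that open when the membrane is stretched.

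The promoter sequences below show where the open regions of these genes met, or missed, an annotated start. They come from RefSeq (GRCm38.p6, the assembly of mm10). Windows of 7 of the 10 genes were used, 10 windows in all, of which 6 had an open region over them. Piezo2 was left out of this search. Each reads 5′ to 3′ on the strand of the gene and, except for Zyx, runs up to the start or to the first annotated base of the gene. They lie at chr14:20929148-20929382 (Vcl, plus strand), chr6:42349696-42349725 (Zyx, plus strand), chr8:61591140-61591389 (Palld, innermost start, minus strand), chr8:61902708-61902957 (Palld, outermost start, minus strand) and chr1:74124549-74124798 (Tns1, minus strand). For Zyx only 30 bases around a motif are shown, and they lie inside the annotated gene, which begins at chr6:42349511. Capitals mark the CArG box of serum response factor, the AP-1 motif TGANTCA and the TEAD motif GGAATG, searched on both strands.
Vcl: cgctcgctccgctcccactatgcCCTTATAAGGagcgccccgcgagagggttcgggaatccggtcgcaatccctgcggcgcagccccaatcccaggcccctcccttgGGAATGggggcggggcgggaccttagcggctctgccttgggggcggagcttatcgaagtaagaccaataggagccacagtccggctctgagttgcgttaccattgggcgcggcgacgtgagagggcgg
Zyx: agtgcggacagTGAGTCAgttctccagcac
Palld innermost start: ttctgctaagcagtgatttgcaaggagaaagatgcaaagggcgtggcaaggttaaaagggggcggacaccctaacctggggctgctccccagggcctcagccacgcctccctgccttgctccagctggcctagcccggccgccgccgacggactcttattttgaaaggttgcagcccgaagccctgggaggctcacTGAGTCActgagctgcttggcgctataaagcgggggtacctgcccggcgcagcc
Palld outermost start: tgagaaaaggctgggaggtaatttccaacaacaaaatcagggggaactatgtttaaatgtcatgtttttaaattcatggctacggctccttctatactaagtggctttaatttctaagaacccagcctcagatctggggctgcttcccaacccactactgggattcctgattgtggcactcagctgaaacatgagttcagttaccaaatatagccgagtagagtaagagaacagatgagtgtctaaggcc
Tns1: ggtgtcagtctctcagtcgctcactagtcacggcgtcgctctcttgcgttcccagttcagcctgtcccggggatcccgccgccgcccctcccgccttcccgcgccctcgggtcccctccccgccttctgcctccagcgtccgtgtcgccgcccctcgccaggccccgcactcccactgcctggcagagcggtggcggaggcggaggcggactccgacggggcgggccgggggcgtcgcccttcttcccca

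The Vcl window held a CArG box 227 to 218 bases upstream of the start and a TEAD motif 143 to 138 bases upstream. In the Zyx window an AP-1 motif lay 121 to 115 bases upstream of an inner start, and so inside the annotated gene. In the innermost Palld window another lay 54 to 48 bases upstream. All of these lay under an open region. A TEAD motif also lay 87 to 82 bases upstream of a middle Palld start and 182 to 177 bases upstream of an inner Lpp start. Neither of those windows had a region over it. Among 32851 RefSeq windows of 250 bases, 1.47% held a CArG box, 6.75% an AP-1 motif and 12.6% the TEAD motif. The GC-box motif GGGCGG, found 4 times in the Vcl window with 1 pair of matches sharing a base, was in 32.7% of all windows and in 63.0% of those with an open region over them. Of the windows with an open region, 1.22% held a CArG box, 4.58% an AP-1 motif and 10.1% the TEAD motif. The Tns1 window, without a region, held GGGCGG 3 times. The Zyx window held it 2 times and the innermost Palld and Piezo1 windows 1 time each, all with a region. A match describes the letters of the window and not binding by a factor.

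Within Palld, base content differed between the starts. The innermost start, whose window held 13 CpG dinucleotides, was covered by a region with a level of 5.96 on 32 kPa and 5.94 on plastic. The outermost window held 2 CpG and the middle one 6, and neither had a region, the nearest lying 8.35 and 4.55 kb away. For Lpp, too, the outer start (18 CpG) had a region over it and the inner start (2 CpG) had none within 11.5 kb. Over all windows a region was present at 5.44% of those with 0 to 4 CpG, 27.0% of those with 5 to 9, 70.2% of those with 10 to 19 and 80.7% of those with 20 or more. The Tns1 window went the other way, with 30 CpG and no region nearer than 10.8 kb, where a weak region assigned to Rufy4 (3.87 on 32 kPa) lay.

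The 10 loci differed in how many open regions they held and where. Palld had 25 regions, more than any of the other members, followed by Tns1, Lpp and Piezo2 with 11 each. Ptk2, Vcl and Piezo1 had 6 each, Tln1 and Zyx 4 each and Pxn 2. The median was 6 per gene, against 2 over 17919 genes with a region within 100 kb. The genes also differ in span, from 10.7 kb for Zyx to 391 kb for Palld and 599 kb for Lpp in RefSeq. Introns held 51 of the 86 regions (59.3%, against 37.7% of all regions within 100 kb), promoters 14 (16.3%, against 23.3%) and intergenic sequence 19 (22.1%, against 33.3%). Most of the intronic regions came from 2 genes, Palld with 23 and Tns1 with 11. Region length ran from 84 to 696 bases with a median of 187, close to the 179 of all regions. Annotated repeats covered 10 regions (11.6%, against 12.2%), among them an ERVK element 9.62 kb upstream of Zyx at 5.14 on 32 kPa and 4.89 on plastic.

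**Figure D1:**
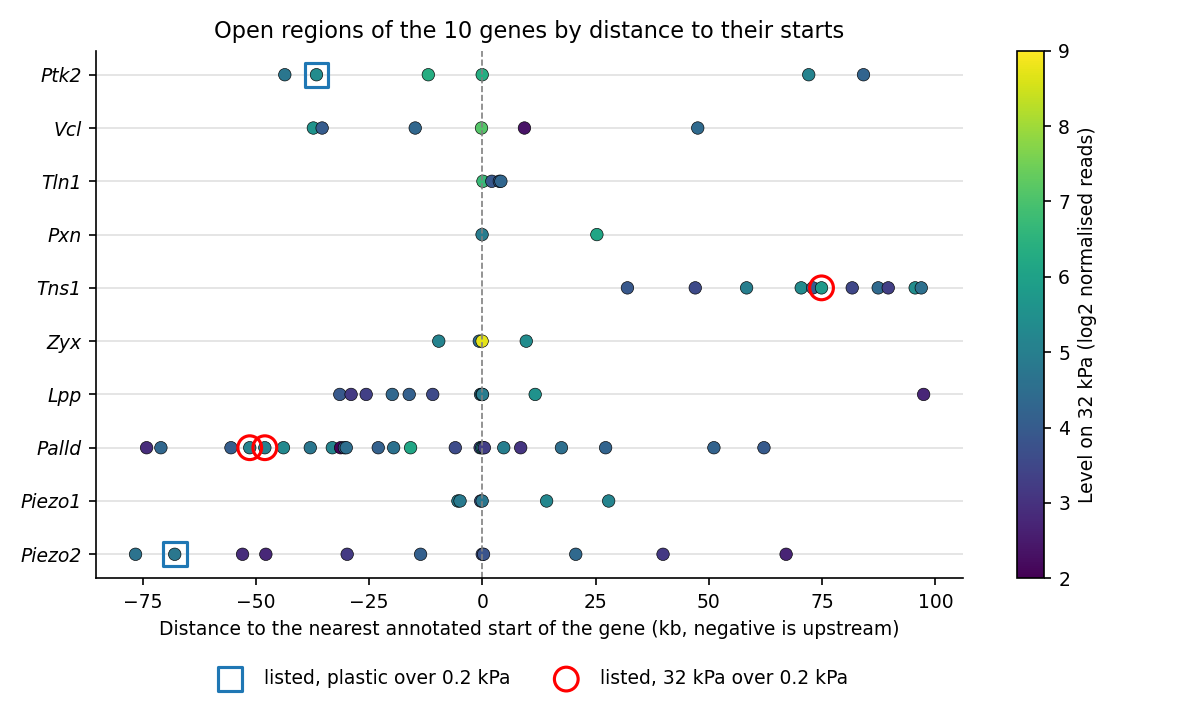
Each point is 1 of the 86 regions, placed by its distance in kb from the nearest annotated start of its gene (negative is upstream) and coloured by its level on 32 kPa in log2 normalised reads; red circles mark the 3 regions listed for 32 kPa over 0.2 kPa and blue squares the 2 listed for plastic over 0.2 kPa. Listed regions lie 36.6 to 74.8 kb from a start, and Tns1 has no point within 32.0 kb of its start.

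Levels within a locus spanned a wide range. On 32 kPa they ran from 2.07 to 6.14 at Palld, from 2.37 to 7.13 at Vcl and from 4.46 to 8.71 at Zyx, while Piezo1 ran only from 3.83 to 5.25. The Piezo1 region with the highest level on 32 kPa lay in an intron 14.2 kb from a start (5.25 on 32 kPa, 5.33 on plastic), while on plastic another intronic region, 27.9 kb from a start, was higher (5.16 on 32 kPa, 5.43 on plastic). The strongest Lpp region lay in an intron 11.7 kb from a start (5.57 on both). At Palld the highest level was at an intronic region over a CA repeat (6.14 and 6.07), while per kb the innermost promoter was strongest. The Piezo2 regions were weak, from 2.70 to 4.77 on 32 kPa and from 2.42 to 5.12 on plastic. At Palld, 13 regions lay in intron 10 of 21 of the longest transcript and 7 in intron 2. At Tns1 all 11 regions were intronic, 9 of them in intron 3 of 34, 58.3 to 96.9 kb into the gene. The 100 kb limit cut through 3 loci. Just inside it were regions of Lpp at 97.4 kb (2.74 on 32 kPa, 3.39 on plastic) and Tns1 at 96.9 kb (4.56 and 4.85). Just outside were regions of Piezo2 at 109 kb (4.60 and 3.63) and Lpp at 111 kb (6.50 and 6.34).

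Promoter accessibility was compared between genes per length, as the level minus log2 of the region's length in kb, for the region within 1 kb of a start that was strongest on 32 kPa. Zyx had the highest value, 9.23 on 32 kPa and 9.01 on plastic, above 99.8% of 11839 genes with such a region on 32 kPa. Its region (chr6:42349427-42350122) was 696 bases long, with levels of 8.71 on 32 kPa and 8.49 on plastic. Vcl followed with 8.07 per kb on 32 kPa and 7.90 on plastic (chr14:20928950-20929472, levels 7.13 and 6.96). Palld had 7.78 and 7.76 per kb at its innermost start, Tln1 7.69 and 7.24, and Ptk2 7.59 and 7.61, on 32 kPa and plastic in turn. The Tln1 region (chr4:43562193-43562700) also covers the start of Creb3 on the opposite strand, so its signal cannot be divided between the 2 genes.

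The median over all genes was 7.28 per kb on both cultures. Zyx, Vcl, Palld and Ptk2 were above it on both, and Tln1 was above it on 32 kPa and below it on plastic. Pxn, Piezo1 and Piezo2 were below it on both at the regions compared, and Lpp on 32 kPa only. Pxn had 7.21 per kb on 32 kPa and 6.77 on plastic, and its intronic region 25.3 kb downstream carried more reads over a longer stretch (6.11 and 6.05 over 530 bases). Piezo1 had 7.20 and 7.15 per kb. Piezo2 had 6.34 and 6.47 at the region that was strongest on 32 kPa, above only 5.58% of genes on 32 kPa. Its other promoter region, over the start itself, had 6.33 on 32 kPa and 7.13 on plastic. Lpp was at 6.89 per kb on 32 kPa and 7.31 on plastic, and Tns1 had no region to compare. The order is a description. Zyx, Vcl and Palld led on both cultures. Piezo2 came last on 32 kPa, and on plastic its place depended on which of its promoter regions was taken. Without the spread of libraries, neighbours in this order cannot be said to differ. The promoter regions compared moved by up to 0.46 between the cultures. The other Piezo2 promoter region moved by more, with a difference, 32 kPa minus plastic, of -0.79.

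**Figure D2:**
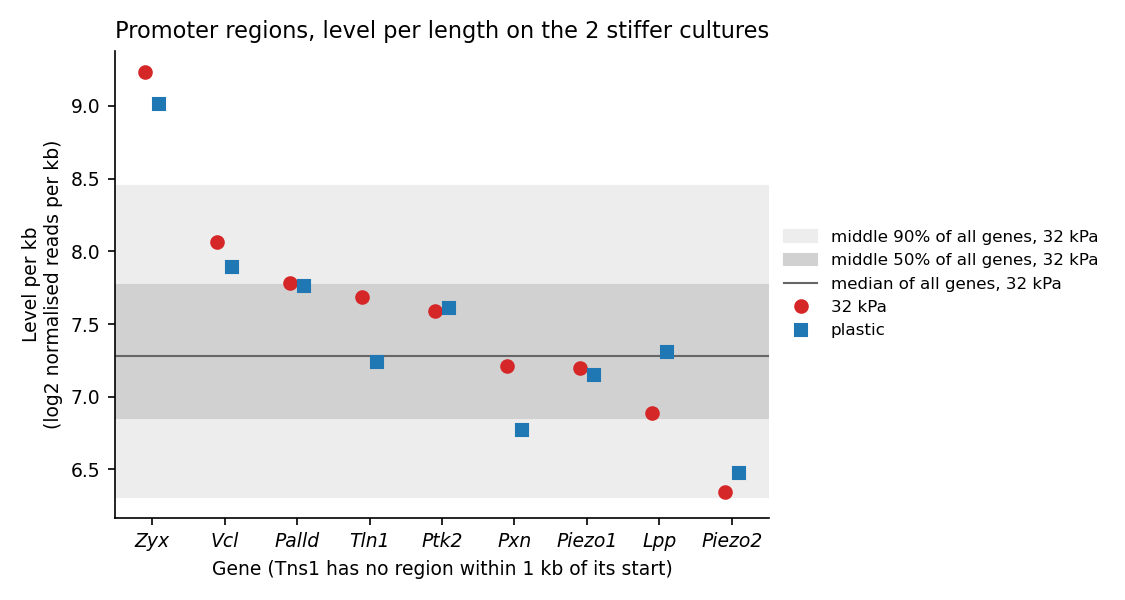
The level per kb (log2 normalised reads per kb) of the region within 1 kb of a start that was strongest on 32 kPa is plotted for 9 genes on 32 kPa (red circles) and plastic (blue squares), with grey bands for the middle 50% and 90% of 11839 genes and a line at their median. Zyx sits above the bands at 9.23 and 9.01, and Piezo2 is lowest at 6.34 and 6.47.

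Between 0.2 kPa and 32 kPa, the listed regions were 2 in an intron of Palld and 1 in an intron of Tns1. They made up 3 of 86 regions (3.49%), against 3.59% of all 53913 regions within 100 kb of a start that overlapped one listed. Of the 26 regions that reached the lowest listed level, 3 were listed (11.5%), against 12.5% of 15438 regions over all genes. The share of listed regions was near the background. In these bulk libraries, a site open in more cells and a site more open in each cell cannot be told apart.

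The stronger Palld change was at chr8:61642341-61642616, 51.3 kb upstream of the innermost start and inside intron 10 of the longest transcript. Its level was 3.53 on 0.2 kPa, 5.09 on 32 kPa and 4.61 on plastic. The rise to 32 kPa was 1.56 on the log2 scale, 2.95-fold (p = 0.00179, FDR = 0.018 in the authors' deposited table). The next Palld region, at chr8:61638987-61639297 and 3.04 kb away in the same intron, went from 3.67 on 0.2 kPa to 5.02 on 32 kPa and stood at 4.48 on plastic. It rose by 1.35, 2.55-fold (p = 0.00611, FDR = 0.0343 in the authors' deposited table). At both, 32 kPa was highest and 0.2 kPa lowest. Plastic stood 1.08 and 0.81 above 0.2 kPa, but at 4.61 and 4.48 both were below the lowest level listed for plastic. The other 5 Palld regions that reached the listed level on 32 kPa, at 4.98 to 6.14, were not listed, and they include the innermost promoter.

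The Tns1 region lay 74.8 kb into the gene in intron 3 (chr1:74049557-74049798), at 4.71 on 0.2 kPa, 5.73 on 32 kPa and 5.55 on plastic. It rose by 1.03 on the log2 scale, 2.04-fold, from 0.2 kPa to 32 kPa (p = 0.00838, FDR = 0.0404 in the authors' deposited table). The level on plastic was 0.84 above that on 0.2 kPa. Another 3 Tns1 regions reached the listed level on 32 kPa, at 4.98 to 5.41, without being listed. None of Zyx, Vcl, Tln1, Ptk2 or Pxn had a region listed for 32 kPa, although the promoters of Zyx, Vcl, Tln1 and Ptk2 were at 8.71, 7.13, 6.71 and 6.34 and the intronic Pxn region at 6.11. The promoters of Pxn (4.90), Lpp (4.90), Piezo1 (4.74) and Piezo2 (3.82) were below the lowest listed level. Away from the promoter, 3 Piezo1 regions and 1 Lpp region reached that level on 32 kPa, and none of them was listed. All 11 Piezo2 regions were below the lowest listed level, so their absence carries no information on direction.

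Between 0.2 kPa and plastic, the listed regions were 1 upstream of Ptk2 and 1 upstream of Piezo2, both intergenic. They were 2 of 86 regions (2.33%), against 3.37% of the 53913 regions of all genes, and 2 of the 27 that reached the lowest listed level (7.41%), against 11.2% of 16191. Both comparisons share the libraries of 0.2 kPa.

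The Ptk2 region lay 36.6 kb upstream of the gene (chr15:73459656-73459940), at 4.57 on 0.2 kPa, 5.39 on 32 kPa and 5.62 on plastic. It rose by 1.05, 2.07-fold, from 0.2 kPa to plastic (p = 0.00551, FDR = 0.0297 in the authors' deposited table). The other Ptk2 regions that reached the listed level were the promoter at 6.36 and a region 11.9 kb upstream at 6.32 on plastic, and neither was listed. The Lpp promoter (5.32 on plastic) was not listed either. The Piezo2 region lay 67.9 kb upstream (chr18:63454935-63455285), at 3.78 on 0.2 kPa, 4.77 on 32 kPa and 5.01 on plastic. It rose by 1.23, 2.35-fold, from 0.2 kPa to plastic (p = 0.0113, FDR = 0.0441 in the authors' deposited table). A second Piezo2 region that reached the listed level on plastic, at 5.04 and 13.6 kb upstream, was not listed. At the listed region the level on 32 kPa, read over a wider interval (419 against 351 bases), was 0.99 above that on 0.2 kPa. It was below 4.97, the lowest listed there. At all 5 listed regions both stiffer cultures were above 0.2 kPa, by 0.81 to 1.56. Each was chosen through its low level on 0.2 kPa and its high level on the culture that listed it. The order of 32 kPa and plastic at these regions is therefore not a separate result. Between those 2 cultures their p ran from 0.239 to 0.571 in the authors' deposited table.

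The 5 listed regions had in common that all were distal. None was a promoter, and all lay more than 10 kb from a start. Of all regions listed within 100 kb, 33.0% for 32 kPa and 38.3% for plastic lay beyond 10 kb. Of the members that reached the listed level, 17 of 26 on 32 kPa and 17 of 27 on plastic lay beyond 10 kb. Levels on the third culture came from the table of 32 kPa against plastic, and how it was scaled relative to the others is not given. That table gave the same interval for Palld and Ptk2 and wider intervals sharing 88.6% (Tns1) and 83.8% (Piezo2). In the wider intervals the listing culture itself read higher, 5.76 against 5.73 at Tns1 and 5.12 against 5.01 at Piezo2. The differences of the third culture from 0.2 kPa at these 2 regions therefore include an effect of length. At identical intervals its 32 kPa levels equalled those of the 0.2 kPa table, and its plastic levels were 0.01 to 0.02 lower.

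**Figure D3:**
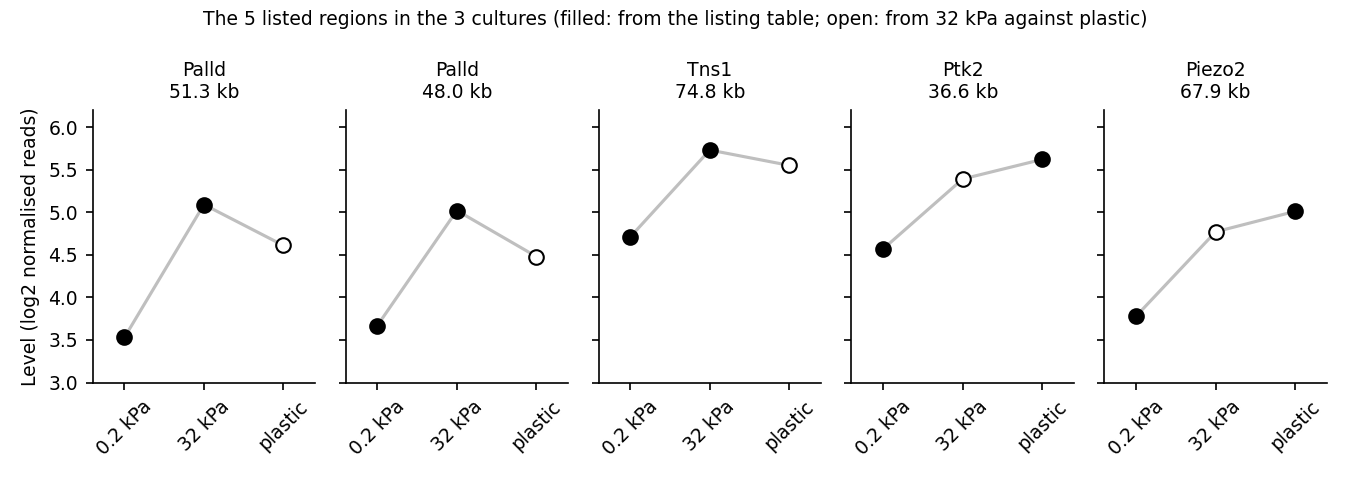
Levels (log2 normalised reads) of the 5 listed regions on 0.2 kPa, 32 kPa and plastic, 1 panel per region with its distance from a start; filled points come from the table that lists the region and open points from the table of 32 kPa against plastic, grey lines join the points, and there are no error bars because the tables hold 1 mean per culture. The 2 Palld regions and the Tns1 region are highest on 32 kPa (5.09, 5.02 and 5.73), and the Ptk2 and Piezo2 regions on plastic (5.62 and 5.01). In each panel that is the culture through which the region was chosen.

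Between 32 kPa and plastic, no region of the 10 genes passed the authors' test. DiffBind's FDR was 1 at all 86, as at every region of the deposited table, so 0% of the 53913 regions within 100 kb were called. At an unadjusted p under 0.05 it was 0 of 86, against 0.536% of all regions within 100 kb (289), and no other tool was run. Few regions of any gene passed even this limit (370 of 64217 at any distance). The lack of a call therefore does not show that the 2 cultures were equal. The median difference, 32 kPa minus plastic, was -0.015 over the 86 regions, against -0.04 over all regions within 100 kb. It was above 0 at 40, below at 44 and equal to 0 at 2.

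The genes leaned different ways, within differences that did not pass the test. At Piezo1 5 of 6 regions were higher on plastic (median difference -0.10), at Piezo2 7 of 11 (-0.21) and at Lpp 7 of 11 (-0.22), against 53.8% of all regions within 100 kb. At Palld 15 of 25 were higher on 32 kPa (0.07), at Vcl 4 of 6 (0.20) and at Pxn 2 of 2, against 24309 of 53913 regions within 100 kb. Ptk2 was the most even, with 3 regions each way and no difference beyond 0.22 in either direction. Of the 9 promoters, 6 were higher on 32 kPa, against 6200 of 11839 over all genes, and each promoter region was chosen as the strongest on 32 kPa. The largest of these differences were 0.46 at Tln1 (6.71 against 6.26, p = 0.105 in the authors' deposited table) and 0.44 at Pxn (4.90 against 4.46, p = 0.347 in the authors' deposited table). The Lpp promoter differed by -0.43 (4.90 against 5.32, p = 0.314 in the authors' deposited table).

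The widest differences were at weak and short regions. A 111-base region in intron 1 of Vcl was at 2.37 on 32 kPa and 3.64 on plastic, a difference of -1.27 (p = 0.147 in the authors' deposited table). At Tns1 they pointed both ways within the gene. A region 47.0 kb into the gene was at 3.58 on 32 kPa and 2.29 on plastic (1.29, p = 0.152 in the authors' deposited table), and one 89.6 kb into it was at 3.30 and 4.48 (-1.18, p = 0.0623 in the authors' deposited table). The smallest p of all members was at chr1:74051523-74051706 in Tns1, at 4.02 on 32 kPa and 5.02 on plastic (-1.0, p = 0.0531 in the authors' deposited table). It lay 1.69 kb from the region listed for 32 kPa, where 32 kPa was the higher (5.76 against 5.55 in this table). A region in intron 2 of Piezo2 differed by -1.06 (2.70 against 3.75, p = 0.169 in the authors' deposited table). In the other direction 2 Palld introns had a difference of 0.80, at 4.19 against 3.39 and 4.23 against 3.42 (p = 0.198 and 0.192 in the authors' deposited table). Of the 86 differences, 79 (91.9%) lay inside the middle 95% of all regions of like level. That range ran from -1.16 to 0.94 at levels of 3 to 4, from -0.76 to 0.64 at levels of 4 to 5 and from -0.34 to 0.40 at levels of 6 to 7. The 7 outside were at Tns1, Piezo2, Vcl and Tln1. They include a longer Piezo2 region of 372 bases, at 4.12 on 32 kPa and 5.04 on plastic (-0.92, p = 0.0756 in the authors' deposited table).

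**Figure D4:**
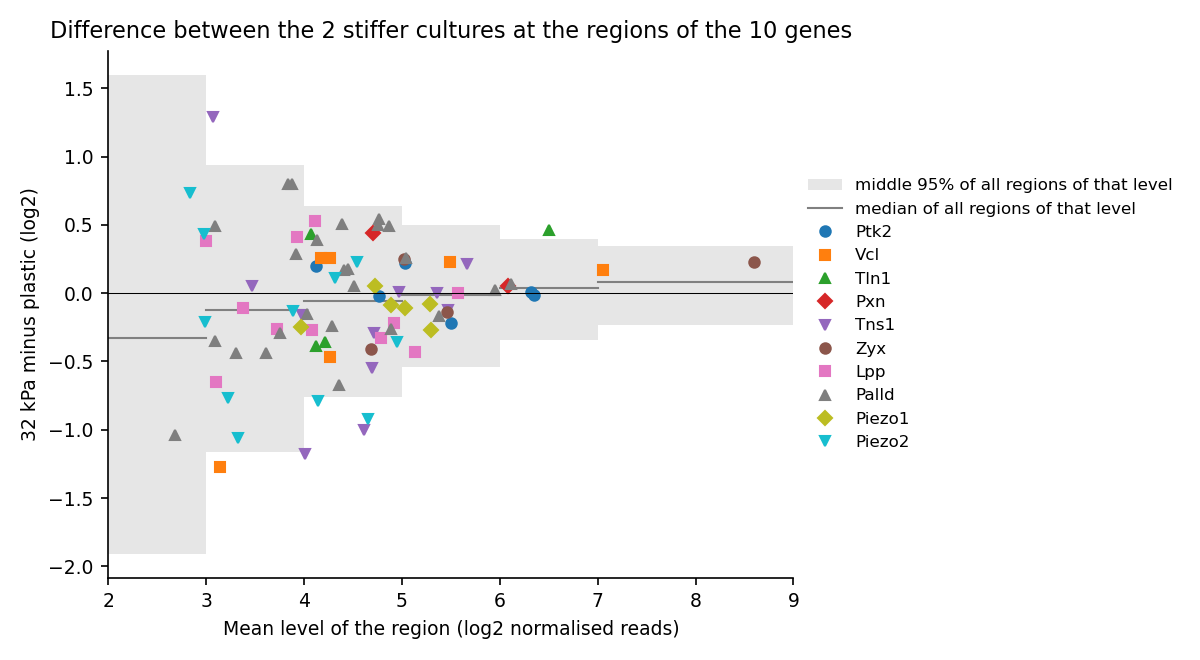
The log2 difference, 32 kPa minus plastic, is plotted against the mean level of each of the 86 regions, coloured and shaped by gene, over grey boxes for the middle 95% of all regions in 6 ranges of level and grey lines for their medians. Differences narrow as the level rises, and 79 of the 86 points lie inside the boxes; the highest and lowest points are Tns1 at 1.29 and Vcl at -1.27.

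Other genes of the same machinery were read from 3 lists. Of 38 adaptors, scaffolds and kinases of adhesions, 30 had a region that reached the listed level on 32 kPa, and 9 of these had a listed one, among them Dock1, Elmo1, Kank1, Nedd9, Pak1, Ptk2b, Sorbs2 and Tns2. That was 10 of 67 regions (14.9%, against 12.5% over all genes). Pak1, a kinase activated by Rac and Cdc42, had 2. Its intronic region 3.93 kb from a start went from 4.66 on 0.2 kPa to 6.02 on 32 kPa, a rise of 1.37 (FDR = 0.00479 in the authors' deposited table), and its promoter from 4.18 to 5.50 (1.32, FDR = 0.0187 in the authors' deposited table). At Ptk2b, which encodes PYK2, the kinase most like FAK, an intronic region 28.0 kb from a start rose by 1.33, from 4.31 to 5.63 (FDR = 0.0139 in the authors' deposited table). Tns2, a tensin relative of Tns1, had a region 1.39 kb from a start that rose from 5.71 to 6.73 (1.02, FDR = 0.0109 in the authors' deposited table). For plastic the listed genes were 8 of 30, among them Arhgef7, Dock1, Elmo1, Kank1, Nedd9, Pak1 and Sorbs2, with 9 of 74 regions (12.2%, against 11.2%). The Dock1 promoter, of a Rac activator that works with Elmo1, rose by 1.38 on 32 kPa (FDR = 0.0195 in the authors' deposited table) and by 1.34 on plastic (FDR = 0.0121 in the authors' deposited table). The regions named for Kank1 lay in an intron of the neighbouring gene Dock8.

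Of 25 LIM and actin-linked proteins, 20 reached the listed level on 32 kPa and 3 had a listed region: Flnc, Pdlim2 and Pdlim5 (3 of 44 regions, 6.82%, against 12.5% over all genes). The Pdlim5 promoter, of a LIM protein of stress fibres, went from 5.43 to 6.54 (1.11, FDR = 0.00733 in the authors' deposited table). For plastic they were Csrp1, Pdlim1 and Pdlim2 of 21 (3 of 50 regions, 6%, against 11.2%), and the Csrp1 promoter rose by 1.14 (FDR = 0.0386 in the authors' deposited table). Of 17 genes of mechanically gated or stretch-linked channels and their partners, 1 of the 8 that reached the listed level was listed on 32 kPa (1 of 11 regions, 9.09%, against 12.5% over all genes). It was Mdfic, which encodes a partner of Piezo channels. Its intronic region went from 3.82 to 5.32 (1.5, FDR = 0.0126 in the authors' deposited table). For plastic 1 of 9 was listed (1 of 12 regions, 8.33%, against 11.2%). It was Tmem87a, whose promoter rose by 1 (FDR = 0.048 in the authors' deposited table). The median differences between 32 kPa and plastic were -0.04, 0 and -0.04 for the 3 lists.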

How the data were processed

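Omni-ATAC-seq libraries were grouped by the culture in their labels, 2 each. Tools named in the submitters' processing notes are MACS2, DiffBind, Picard and BWA, with mm10 as build. Library scaling, versions and transposase shifts are not given in the sources used here. Per the file headers, the deposited levels and folds are log2 means of normalised reads and their differences, while p-value and FDR columns hold the authors' DiffBind results. The sides called Control and Treat were identified from the levels at intervals shared with the table that names its cultures: Control equalled 32 kPa at 643 intervals and was 0.01 to 0.02 above plastic at 653. A header line repeated inside a table (1) was removed.

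Gene names and distances are those of the deposited tables, by nearest TSS, and may differ from the gene a region acts on. Starts were written as 1-based. Regions of different tables were matched by the longest overlap, at 50% of both lengths for levels on the third culture and at 1 bp for background shares. No test was refitted, since the tables hold means, and calls are the authors' FDR at 0.05. Overlaps and motif counts were tested on simulated data. The members, lists and motifs were chosen with earlier results or the promoter sequences known. The regions named are those listed for the 10 genes, each gene's promoter and strongest region, and the 3 largest differences in each direction. Other regions named, and pathway genes given with values, were chosen after their values were seen. An item counted in the pathway lists is not reported here by name. Alternatives were the distance window, FDR, fold, level and promoter limits. Python 3.11.15, pandas 2.3.3, numpy 2.4.6 and matplotlib 3.10.9 were used.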

Additional observations from a re-analysis of the deposited data

How the results depend on the processing

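The listed regions depended on the distance and FDR allowed. With regions within 10 kb of a start only, 0 were listed for 32 kPa and 0 for plastic, and with an FDR of at most 0.01 the counts were also 0 and 0. With a fold of at least 1.2 they were 2 and 1, and with any distance 3 and 2. Between 32 kPa and plastic the count was 0 under every alternative run. The median difference, 32 kPa minus plastic, was -0.12 within 10 kb, 0 for levels of at least 5 and 0.035 when centred on all regions. The median number of regions per gene was 2.5 within 10 kb. The median promoter level on 32 kPa was 7.59 per kb, against 5.96 not divided by length. The levels on the third culture did not change with the overlap, but at 90% of both lengths the Tns1 and Piezo2 regions had no match. No paired analysis was possible because the tables hold 1 mean per culture, and leaving out each replicate was not run for the same reason. Depth is unknown, so no interval for counting error can be given.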

Other observations

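Beyond 100 kb, 10 further regions carried the name of 1 of these genes. The strongest was in intron 6 of Tns1, 126 kb from the start (chr1:73998237-73998836), at 7.02 on 32 kPa and 7.27 on plastic, above each of the 11 Tns1 regions nearer to the start. A region in intron 3 of Piezo2, 179 kb from the start, was at 5.46 and 5.21, also above the strongest nearer one on either culture (4.77 and 5.12). Neither was listed against 0.2 kPa.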
